A study of Mus musculus with 2 samples.

Results

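A set of 10 genes of the actin cytoskeleton and the growth cone were described in embryonic mouse forebrain: the cytoplasmic actins Actb and Actg1, the actin-binding proteins Pfn1, Pfn2, Cfl1, Tmsb4x and Tmsb10, and the membrane-associated proteins Marcks, Marcksl1 and Gap43. They were chosen as a list of 10 gene symbols out of the 55536 gene identifiers of the deposited tables, of which 22015 are nuclear protein-coding genes, and all 10 were found. RNA came from forebrains of B6NCrl mouse embryos of both sexes at embryonic day 12.5, collected as 1 group of 2 pools for which the labels name no treatment or altered allele. Pool 1 held forebrains of 120 embryos and pool 2 those of 68, and the labels number the libraries as biological replicates. Each library was made from 10 ng of RNA by oligo-dT priming, full-length cDNA amplification and tagmentation, with synthetic ERCC RNAs added as spike-ins. The labels give no contrast, so the values below are levels with their spread over the 2 pools, and differences between the pools are described with no test. Levels are given as TPM, a unit that divides reads by effective transcript length and scales each library to the same total.

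Actin exists as free monomers (G-actin) and as filaments (F-actin) that grow at the barbed end and shrink at the pointed end. Profilins deliver monomers to growing barbed ends, beta-thymosins hold monomers in a reserve that cannot polymerise, and cofilin severs old filaments and so returns monomers. In the growth cone, the motile tip of an extending axon, this cycle works under a membrane where MARCKS proteins and GAP-43 bind acidic phospholipids and calmodulin.

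The sequence of the paired members bears on whether their reads can be told apart, so short coding stretches are shown, taken from the GENCODE M21 transcripts of the GRCm38 assembly. The first 60 coding bases of the actin pair lie in the stretch that codes the amino-terminal end, where the beta and gamma proteins differ most. Capitals mark the 9 bases that differ between the genes.
Actb: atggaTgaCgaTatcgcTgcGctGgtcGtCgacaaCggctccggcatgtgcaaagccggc
Actg1: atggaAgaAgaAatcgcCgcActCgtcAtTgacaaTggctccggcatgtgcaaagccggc
The beta-thymosins are so short that the whole coding sequence of 135 bases, stop codon included, can be set out. Capitals mark the 40 bases that differ.
Tmsb4x: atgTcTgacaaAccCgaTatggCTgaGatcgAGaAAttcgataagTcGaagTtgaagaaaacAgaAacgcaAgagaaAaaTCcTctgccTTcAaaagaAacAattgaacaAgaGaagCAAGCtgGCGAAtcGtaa
Tmsb10: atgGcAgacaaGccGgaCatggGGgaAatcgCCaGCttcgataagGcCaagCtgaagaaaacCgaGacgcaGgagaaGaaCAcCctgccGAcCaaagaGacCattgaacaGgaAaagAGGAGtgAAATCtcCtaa
For Marcks and Marcksl1 the stretch that codes the basic effector domain, which binds the membrane and calmodulin, is shown. It holds the most alike in-frame 75 bases, which lie at coding positions 436 to 510 of Marcks and 259 to 333 of Marcksl1, and capitals mark the 20 bases that differ.
Marcks: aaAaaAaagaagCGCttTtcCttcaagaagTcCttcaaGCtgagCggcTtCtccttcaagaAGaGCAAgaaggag
Marcksl1: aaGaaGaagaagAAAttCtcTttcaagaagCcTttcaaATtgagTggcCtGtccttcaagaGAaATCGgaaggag
Gap43 has no close relative in the list, and its first 30 coding bases are shown because they code the start of the protein, with the cysteines that are palmitoylated at the membrane.
Gap43: atgctgtgctgtatgagaagaaccaaacag

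Over the whole coding sequence, Actb and Actg1 shared 1000 of 1128 bases (88.7%), and the longest identical run was 62 bases. Tmsb4x and Tmsb10 shared 95 of 135 bases (70.4%) and Pfn1 and Pfn2 260 of 423 (61.5%), with longest identical runs of 10 and 12 bases. Marcks and Marcksl1 shared 404 of 603 aligned bases (67.0%), with a longest run of 17. The actins were the only pair here with identical coding runs of over 50 bases.

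The libraries held 33373843 gene counts in pool 1 and 34406648 in pool 2, and the 10 genes took 1.63% of them in each pool. All 6 forebrain markers were detected, which here means 1 TPM or more in each pool, from Dlx1, the highest, to Six3, the lowest. None of 6 midbrain and hindbrain markers was detected: their summed TPM was 0.76 in pool 1 and 1.15 in pool 2, En1 was the highest, and En2 and Hoxa2 had no counts. Neuron markers (summed TPM 1401 and 1314) and progenitor markers (2471 and 2302) were present together, so the levels are averages over both. In such bulk tissue, fewer cells of a type and less RNA per cell cannot be told apart. Erythroid markers summed to 11836 TPM in pool 1 and 15868 in pool 2, and mesenchyme markers to 640.5 and 779.2, so both lists were higher in pool 2. Markers of endothelium summed to 65.1 and 62.6 TPM, and those of microglia and macrophages to 42.1 and 47.0.

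All 10 genes were detected, where 58.9% of protein-coding genes were. Their levels spanned from the most abundant nuclear protein-coding gene to rank 871, so the list holds some of the most abundant mRNAs of the tissue and some of moderate level. Together they made up 2.72% of TPM in pool 1 and 2.58% in pool 2. The order of the mean levels was Actb, Tmsb4x, Tmsb10, Cfl1, Actg1, Marcksl1, Pfn1, Pfn2, Marcks and Gap43. The values of the pools did not overlap for any pair of neighbours in that order, with 2 values a gene. The closest neighbours were Cfl1 and Actg1, whose means differed 1.08-fold, then Pfn2 and Marcks, which differed 1.20-fold. In M4 the order of Cfl1 and Actg1 was the opposite, at 2156 and 2436 TPM. With the coding model Actb-201 in place of all Actb transcripts, Actb (4780 and 4720 TPM) overlapped Tmsb4x (4769 and 4694). In counts per kilobase of the longest coding transcript, scaled so that the genes sum to 1e6, Cfl1 (1763) was below Marcksl1 (2256). In that measure Marcks (388.5) was above Pfn2 (379.8).

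**Figure D1:**
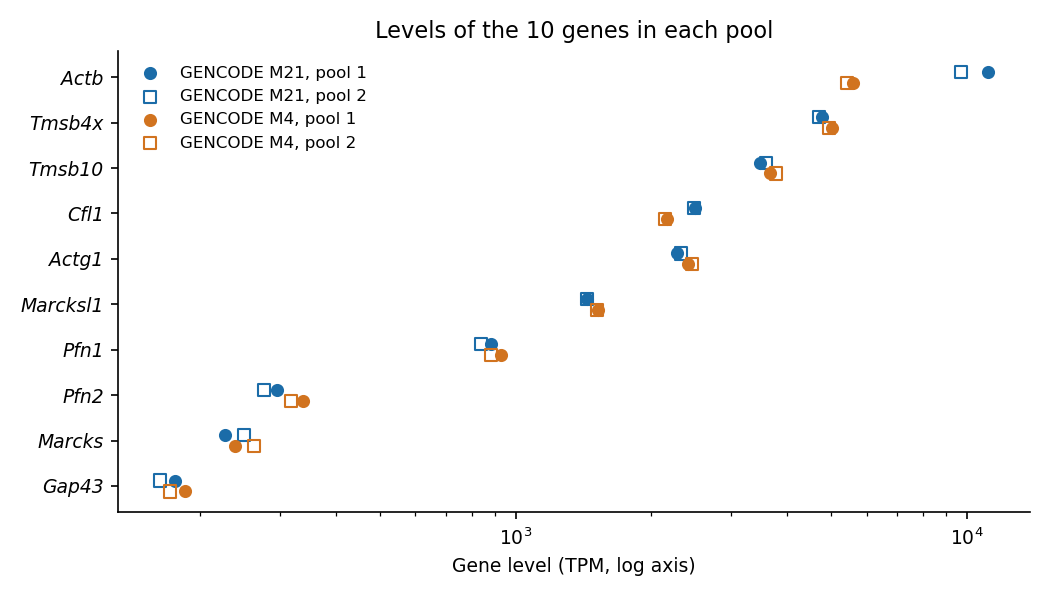
Levels of the 10 genes in TPM on a log axis, one point for each pool and annotation release, with GENCODE M21 beside the older M4. The pools lie close together for each gene, and Actb stands at 10429 TPM in M21 and 5505 in M4.

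Actb (ENSMUSG00000029580.14, chr5:142903115-142906754, minus strand, GRCm38) codes beta-actin, the main cytoplasmic actin of most cells. Its level was 11157 TPM in pool 1 and 9700 in pool 2 (mean 10429 ± 1030, SD, n = 2), rank 1 among nuclear protein-coding genes, ahead of the tubulin gene Tuba1a at 5928. Actg1 (ENSMUSG00000062825.15, chr11:120345690-120348542, minus strand) codes gamma-actin, the other cytoplasmic form, and stood at 2280 and 2330 TPM (mean 2305 ± 35.1), rank 20, between Hnrnpa2b1 and Hspa8. Actb was thus well above Actg1 in both pools, 4.89-fold in pool 1 and 4.16-fold in pool 2. How large that ratio is depended on how Actb reads were assigned to its transcripts.

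In M21 Actb has 9 transcripts, and a pair of them held nearly all its reads. Actb-201, the full mRNA with 6 exons and 1920 bases, had 184816 expected counts in pool 1 and 190100 in pool 2, or 91.3% ± 1.27 of the gene's counts. Actb-209, a non-coding model of 241 bases, had 19126 and 15525 counts, or 8.44% ± 1.29. Both exons of Actb-209, of 74 and 167 bases, lie inside the 3′ UTR of Actb-201, joined across a gap of 180 bases. The model can hold few start positions for a read: the tables give it an effective length of 142 bases, and 1821 for Actb-201, in each case 99 below the annotated length.

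Dividing by these effective lengths reversed the order of the transcripts. Actb-209 stood at 6344 TPM in pool 1 and 4943 in pool 2, which was 53.9% ± 4.17 of the TPM of Actb. Actb-201 stood at 4780 and 4720 TPM, which was 45.8% ± 4.11. Of the 142 stretches of 100 bases in Actb-209, 68 occur unchanged in Actb-201 and 74, which cross its junction, do not. Whether the reads given to Actb-209 cross that junction was not tested. The deposited posterior SD of the Actb-209 count, the uncertainty of assigning reads among transcripts, was 110.9 reads in pool 1 and 113.2 in pool 2. That is small beside its counts, but it takes the annotated models as given. Among genes with several transcripts, 0.0348% had over 50% of TPM but under 10% of counts in a model of under 300 bases.

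The pool difference of Actb lay mainly in this short model. Actb counts were 204489 in pool 1 and 206244 in pool 2, while its TPM was 1.15 times as high in pool 1. Of the 1457 TPM by which pool 1 exceeded pool 2, 1400 were in Actb-209 and 59.96 in Actb-201. With Actb-201 in place of all Actb transcripts, a choice made after these values were seen, the level was 4750 ± 42.4 TPM and the ratio to Actg1 was 2.10 in pool 1 and 2.03 in pool 2.

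The older annotation, M4, has no Actb-209, and there Actb-201 held 203985 counts in pool 1 and 205666 in pool 2, or 99.7% of the counts. Actb had 204496 and 206257 counts in M4, nearly those of M21, but 5591 and 5419 TPM. Leaving out Actb-209 and its junction thus hardly changed the number of reads given to Actb. That lowered Actb from rank 1 to rank 3 and its ratio to Actg1 to 2.32 and 2.20. Actb was the only one of the 10 genes whose TPM differed over 1.5-fold between the releases, where 6.48% of the genes averaging 10 TPM or more did, and 5.5% had the higher value in M21. By counts, none of the 10 differed over 1.5-fold, where 2.71% did.

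**Figure D2:**
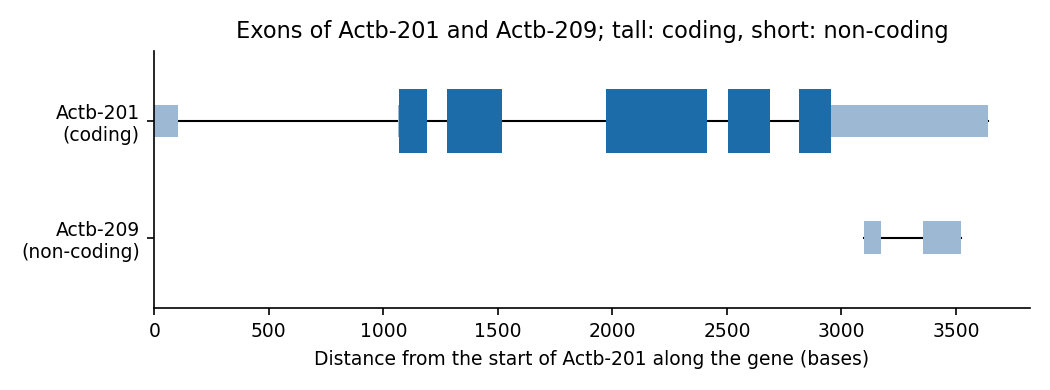
Exons of Actb-201 and Actb-209 by distance from the gene's start, drawn to scale in bases, with coding parts tall and non-coding parts short. The short model lies within the 3′ UTR of the full mRNA and holds 8.44% of Actb counts and 53.9% of its TPM.

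The gamma-actin reads were divided between similar models rather than unlike ones. Actg1-202 held 80.2% ± 2.78 of Actg1 counts and Actg1-204 held 19.3% ± 2.78, with 15220 counts of the latter in pool 1 and 19837 in pool 2. Actg1-204 lacks the first, non-coding exon and carries the same coding sequence. All 1728 of its stretches of 100 bases occur in Actg1-202. The posterior SD of its count was 991 reads in pool 1 and 992 in pool 2, and this division has no effect on the gene total.

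Actg1 shared more sequence with other genes than the other 9 did. Of its 2927 distinct stretches of 50 bases, 1094 (37.4%) occur in transcripts of 23 other genes, led by the processed pseudogenes Gm12715 (973), Gm8399 (677) and Actg-ps1 (424). Actb shared 266 of 2916 (9.12%), led by Lrrc58 (179) and the pseudogene Gm15725 (126), and 30 with Actg1 itself. At 100 bases no stretch was common to the actins.

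The reads assigned to the pseudogenes were few beside the actin totals. Gm12715 was given 302.0 counts in pool 1 and 411.3 in pool 2, Gm8399 73.5 and 69.6, and Actg-ps1 12.2 and 29.6, against 87830 and 93288 for Actg1. Gm15725 was given 0.03 counts in pool 1 and 177.1 in pool 2, against the totals of Actb given above. Lrrc58, a protein-coding gene, had far more, 9873 counts in pool 1 and 9698 in pool 2, and it shares 20 stretches of 100 bases with Actb. Whether reads of the relatives come from them or from the actins was not tested. The posterior SD of the gene count was 30.5 and 33.7 reads for Actg1 and 6.95 and 7.18 for Actb.

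The actins of muscle were at much lower levels. Acta2, of smooth muscle, stood at 17.7 TPM in pool 1 and 34.3 in pool 2, Actc1, of heart, at 2.13 and 5.03, and Actg2, of visceral smooth muscle, at 1.68 and 3.38. Acta1, of skeletal muscle, stood at 0.73 and 1.91, and was not detected by the rule of 1 TPM or more in each pool. All 4 were higher in pool 2, by log2 differences of 0.88 to 1.33 in scaled counts. The counting interval of each ratio lay wholly on the side of pool 2. Of these genes only Acta2 averaged 10 TPM or more, the level from which shares over all genes were taken. No such share was computed for genes as low as Actc1, Actg2 and Acta1. How common differences of this size are at their level is therefore not known. Markers of smooth muscle and pericytes summed to 42.8 TPM in pool 1 and 66.0 in pool 2, with 4 of 5 detected. Those of skeletal and cardiac muscle summed to 4.31 and 9.74, with 2 of 5 detected. Not every marker in these sums was clearly higher in pool 2. Rgs5 was lower there (4.02 TPM in pool 1 and 3.78 in pool 2), and Pdgfrb (12.9 and 14.6) and Tnnt2 (1.16 and 1.18) were only slightly higher. The other markers of both lists were higher in pool 2 by more. Rgs5, Pdgfrb and Tnnt2 were named after their values were seen. Acta2, Actc1 and Acta1 are themselves in these marker lists, and the part of such tissue in the difference was not tested.

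Of the monomer-holding thymosins, Tmsb4x (ENSMUSG00000049775.16, chrX:167207093-167209315, minus strand) stood at 4769 TPM in pool 1 and 4694 in pool 2 (mean 4731 ± 53.2), rank 5. Tmsb10 (ENSMUSG00000079523.8, chr6:72957347-72958748, minus strand) stood at 3472 and 3583 TPM (mean 3527 ± 78.7), rank 11. These short mRNAs came next after Actb among the 10 genes, and Tmsb4x exceeded Tmsb10 1.37-fold in pool 1 and 1.31-fold in pool 2. Each was carried by a single model, Tmsb4x-201 with 99.02% and Tmsb10-203 with 98.1% of counts.

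The pair differed in how much sequence it shared with other genes. Tmsb4x shared none of its 1362 stretches of 50 bases, while Tmsb10 shared 331 of 1225 (27.0%), 265 with Gm9844, which is annotated as protein-coding, and 66 with the pseudogene Gm3788. Gm9844 was given 183.1 and 164.8 counts and Gm3788 21.3 and 11.3, against 34670 and 37259 for Tmsb10. Of the related thymosins, Tmsb15b2 stood at 65.7 and 74.1 TPM, Tmsb15b1 at 25.3 and 26.9, and Tmsb15l at 7.04 and 4.43. In M4 Tmsb15l stood at 24.4 and 28.3 TPM, higher and with pool 2 above pool 1. Tmsb15a had 1 count in pool 1 and 0 in pool 2. The Tmsb15 genes were thus far below Tmsb4x and Tmsb10 in both pools.

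Summed over each pair, thymosin mRNA was close to actin mRNA. The ratio of Tmsb4x and Tmsb10 to the actins was 1.17 in each pool with Actb-201 for Actb, and 1.09 and 1.11 in M4. With all Actb transcripts of M21 it was 0.613 in pool 1 and 0.688 in pool 2. In TPM the thymosin sum therefore lay above or below the actin sum depending on whether the TPM of Actb-209 was included. In counts per kilobase of the longest coding transcript, the thymosin sum was the lower one. There Tmsb4x stood at 6113 and Tmsb10 at 4014, against Actb at 8243 and Actg1 at 3573. All these comparisons are of mRNA and say nothing of protein.

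Pfn1 (ENSMUSG00000018293.4, chr11:70651850-70654644, minus strand) codes the profilin found in nearly all cells, and Pfn2 (ENSMUSG00000027805.16, chr3:57841895-57848079, minus strand) the form enriched in brain. Pfn1 stood at 882.1 TPM in pool 1 and 838.0 in pool 2 (mean 860.0 ± 31.2), rank 76. Pfn2 stood at 295.6 and 277.0 TPM (mean 286.3 ± 13.2), rank 454. Pfn1 was therefore the higher one, 2.98-fold in pool 1 and 3.03-fold in pool 2. Thymosin mRNA exceeded profilin mRNA 6.997-fold and 7.42-fold. Neither profilin shared a stretch of 50 bases with another gene, and of the other profilins Pfn4 stood at 5.17 and 5.64 TPM and Pfn3 had 0 counts in pool 1 and 1 in pool 2.

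Pfn1 was carried by Pfn1-201, with 97.4% of counts, whereas the Pfn2 reads were split and the split differed between the releases. In M21, Pfn2-202 held 58.9% ± 1.097 of Pfn2 counts and Pfn2-201 held 38.2% ± 1.33. In M4, Pfn2-201 held 98.2% and Pfn2-202 held 0.371%. The gene totals hardly differed, at 11635 and 11446 counts in M21 and 11536 and 11326 in M4. Of the 7 genes in the list with several transcripts in both releases, only Pfn2 had a different leading transcript by count, where 6.98% of such genes did.

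The models differ at their 5′ ends. Pfn2-201 has the full reading frame of 140 codons, while Pfn2-202 begins with another, non-coding exon and has 91 codons that start within its second exon. Most of the sequence is common: 1505 of the 1780 stretches of 100 bases in Pfn2-202 occur in Pfn2-201, and 275 are its own. The model of Pfn2-201 is 2342 bases long in M21 and 1827 in M4. Pfn2 TPM was 328.2 in M4 and 286.3 in M21, a log2 difference of 0.20 beside a median of 0.07 over all genes. The counts by model do not show which protein is made.

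Cfl1 (ENSMUSG00000056201.8, chr19:5490455-5495201, plus strand) codes cofilin-1, the main non-muscle cofilin. It stood at 2493 TPM in pool 1 and 2481 in pool 2 (mean 2487 ± 8.28), rank 17. Its relatives were lower: Dstn, which codes the depolymerising factor destrin, stood at 303.2 and 286.6 TPM, and Cfl2, the muscle form, at 214.4 and 206.1. In M4 Cfl2 stood at 117.2 and 115.8 TPM. Cfl1 counts were 15.8% higher in M21 (52967 and 54771) than in M4 (45815 and 47224). It was the only one of the 10 whose M21 counts were over 1.1-fold those of M4, where 9.64% of genes were; this fold was chosen after the values were seen. The counts of the other 9 differed by at most 0.958%.

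The older release has 1 transcript of Cfl1 and M21 has 4. Cfl1-201 held all M4 counts and 72.3% ± 0.512 of those of M21, where Cfl1-204 held 17.7% and Cfl1-202 held 9.69%. The leading model, Cfl1-201, has 6 exons, and its last 2 introns are each 2 bases long. Its annotated reading frame of 227 codons is longer than the 166 codons of Cfl1-202. The codons that Cfl1-202 lacks lie past the first of those 2-base introns, and the counts by model do not show which protein is made. Cfl1-202 has a last exon of 1821 bases, and 1311 of its 2255 stretches of 100 bases are absent from Cfl1-201. Cfl1-204 continues through a stretch that is an intron in Cfl1-201 and has 334 of 672 stretches that Cfl1-201 lacks.

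A neighbouring gene also bears on these reads. Cfl1 exons overlap those of Snx32, a sorting nexin gene on the opposite strand, over 468 bases. Of 2895 stretches of 50 bases in Cfl1, 530 (18.3%) are shared, 373 with Snx32 on the opposite strand and 187 with the pseudogene Gm6180. Snx32 was given 917.0 and 960.7 counts in M21 and 619 and 634 in M4. The libraries were made by tagmentation of amplified cDNA, and reads from the overlap cannot be told apart between these genes. Whether counting used strand is not given in the sources used here.

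**Figure D3:**
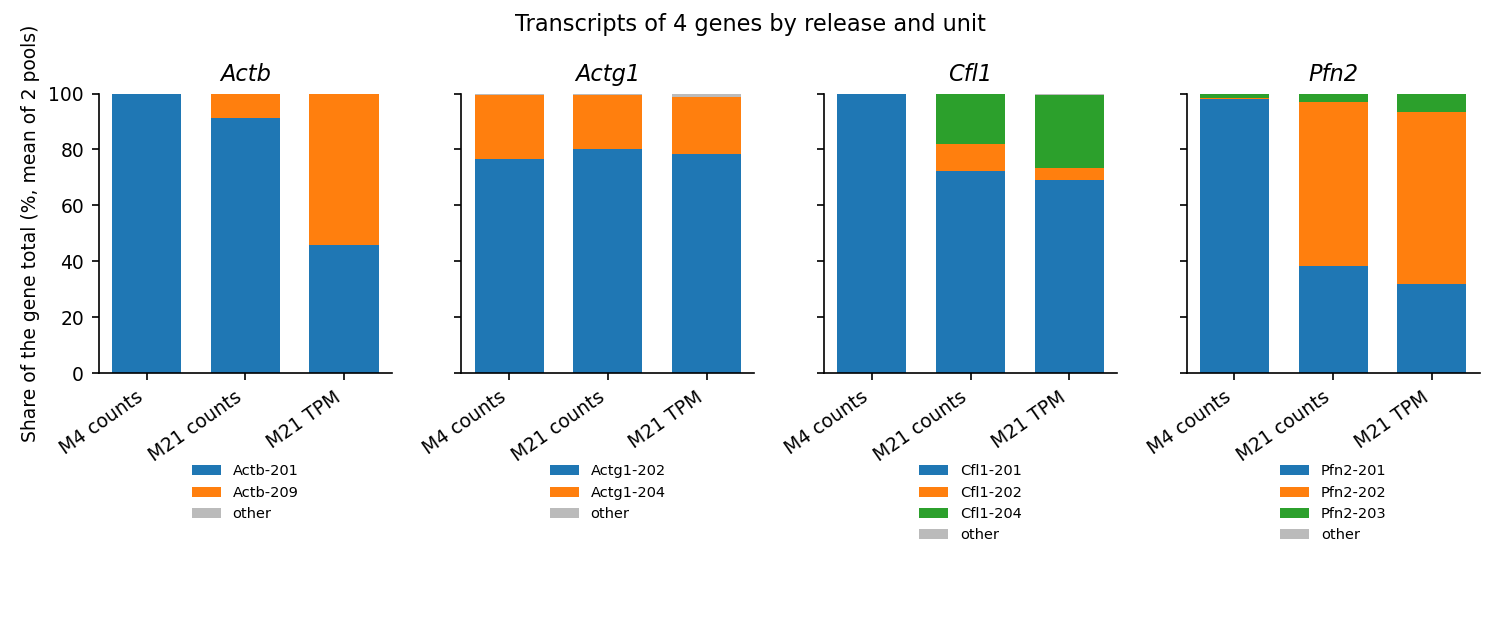
Bars give the share (%) of each gene's M4 counts, M21 counts and M21 TPM held by its main transcripts, as the mean over the 2 pools. The transcripts of Actb, Pfn2 and Cfl1 differ between releases or between counts and TPM, while Actg1-204 held 19.3% of counts in M21 and 23.1% in M4.

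Of the membrane proteins, Marcksl1 (ENSMUSG00000047945.6, chr4:129513581-129515985, plus strand) was far above its relative. It stood at 1443 TPM in pool 1 and 1438 in pool 2 (mean 1440 ± 3.66), rank 32. Marcks (ENSMUSG00000069662.5, chr10:37133375-37138920, minus strand) stood at 226.8 and 250.3 TPM (mean 238.5 ± 16.6), rank 577. Marcksl1 exceeded Marcks 6.36-fold and 5.74-fold. Each has 1 transcript in both releases, and despite the alike stretch printed above, Marcks shared only 7 of 3999 stretches of 50 bases with other genes and Marcksl1 25 of 1556. Their counts were the same in M21 and M4.

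The gap was wider per length than in reads. Marcks, with a transcript of 4048 bases, had 19013 and 21860 counts, against 46132 and 47881 for Marcksl1, with one of 1605 bases.

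Gap43 (ENSMUSG00000047261.9, chr16:42248442-42340651, minus strand) codes the growth-associated protein of elongating axons. It was the lowest of the 10, at 175.5 TPM in pool 1 and 162.7 in pool 2 (mean 169.1 ± 9.04), rank 871. That is still above the median TPM of detected protein-coding genes, 21.9. Gap43-201 held 99.6% of counts, and no stretch of 50 bases was shared with another gene.

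The deposited posterior SD of a gene's count was 0 in both pools for 5546 genes, and the counts of all of them were whole to the 2 decimals given. Of the 10, 6 were in that state, where 58.4% of genes averaging 10 TPM or more were: Pfn1, Pfn2, Tmsb4x, Marcks, Marcksl1 and Gap43. The other 4, Actb, Actg1, Cfl1 and Tmsb10, shared 9.12% to 37.4% of their stretches of 50 bases, a split described after the values were seen. Marcks and Marcksl1 also shared some, 7 and 25 stretches, at a posterior SD of 0. The same relation over other genes was not tested. In Actb, Actg1, Cfl1 and Tmsb10 the posterior SD was between 3.69 and 33.7 reads, small beside their gene counts.

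Between the pools the 10 genes differed little. None was over 25% higher in either pool in TMM-scaled counts, where 4.8% of 9495 genes averaging 10 TPM or more were, and none passed 1.5-fold, where 1.21% did. Gap43 was the highest in pool 1 relative to pool 2, 1.09-fold with a counting interval of 1.05 to 1.14, and Marcks the lowest, 0.916-fold with an interval of 0.899 to 0.935. Actb was 1.04-fold. The median fold in either direction was 1.04 over the 10 genes and 1.05 over all. Intervals are exact binomial at 95% and cover counting error only. With TMM scaling they excluded 1 for 9 of the 10, all but Actg1, and among the 9 was Marcksl1 at only 1.02-fold. At counts this high the intervals are narrow, and the share over all genes was not computed. They leave out the spread between the pools, whose common coefficient of variation over all genes in the fit was 8.51%.

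The direction depended on scaling. With TMM, 7 of the 10 were higher in pool 1, with a log2 median of 0.03 beside 0.02 for all genes. With spike-in totals, which shifted the median of all genes to -0.14, none was higher in pool 1, and the 10 lay between -0.29 and -0.03. Spike-in counts were 1240711 in pool 1 and 1167338 in pool 2. Each library was made from 10 ng of RNA rather than a set number of cells, so which scaling is nearer to RNA per cell cannot be told.

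**Figure D4:**
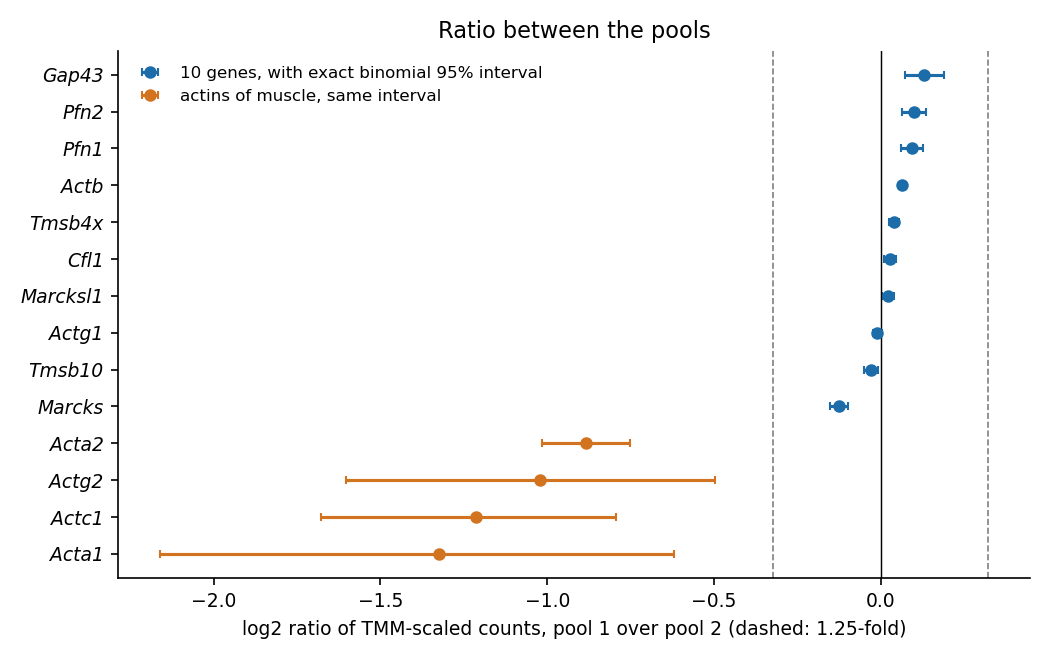
Log2 of pool 1 over pool 2 in TMM-scaled counts for the 10 genes and the actins of muscle, with exact 95% binomial intervals that cover counting error only; dashed lines mark the 25% difference used as threshold. The 10 genes lie between -0.13 and 0.13 and the actins of muscle between -1.33 and -0.88.

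The genes of the actin pathway lists and of the growth cone and axon growth list were all detected. They were 84 of 84 in 7 lists, where 58.9% of protein-coding genes were detected, and 78 averaged 10 TPM or more. Levels were highest in the growth cone and axon growth list (median 182.8 TPM), led by the microtubule-binding Map1b (1047), the neuronal tubulin Tubb3 (673.8) and Dpysl2 (440.5), with Cntn2 (29.1) and L1cam (27.6) lowest. In M4 Map1b stood at 497.0 TPM in pool 1 and 450.2 in pool 2, below Tubb3 at 737.3 and 682.7. The list of bundling, crosslinking and contraction had a median of 134.8, led by Fscn1 (552.2), which bundles filaments in filopodia, Dbn1 (486.3) and Tpm3 (388.7). Actn1 (15.8) was its lowest. Beside these, the median over all protein-coding genes was 4.08 TPM and over the detected ones 21.9.

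The machinery that starts and turns over filaments stood lower. Branched nucleation by Arp2/3 and WAVE had a median of 75.2 TPM over 19 genes, from Arpc2 (283.3), Arpc4 (257.7) and Arpc5 (217.4) to Wasf2 (30.8) and Wasf3 (6.08). Filament turnover and capping had a median of 44.2 over 17 genes, led by Capzb (241.9), Coro1c (208.2) and Capza2 (185.4), with Cap2 (8.33) and Ssh3 (4.58) lowest. In M4 Ssh3 stood at 2.62 and 2.95 TPM. The formin and Ena/VASP list, of proteins that start or extend unbranched filaments, was lower, with a median of 12.4, led by Evl (95.4), Vasp (33.4) and Enah (30.4), with Diaph2 (6.12) and Diaph1 (4.31) lowest. In M4 Evl stood at 48.3 and 53.5 TPM, against 94.0 and 96.7 in M21. The transcription factor Srf and its actin-sensing cofactors, which respond to the pool of free actin, were low, with Mrtfa at 20.9, Mrtfb at 12.2 and Srf at 3.90 TPM.

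Of the 78 genes, 4 were over 25% higher in pool 1, where 1.92% of genes were, and 2 were over 25% higher in pool 2, where 2.89% were. In pool 1 these were Dpysl2 (526.5 against 354.5 TPM), Ncam1 (126.0 and 103.5), Dpysl5 (104.6 and 85.2) and Cap1 (34.6 and 22.0), and in pool 2 Tpm1 (170.4 against 219.2) and Basp1 (120.4 against 181.0). Ncam1, Dpysl5, Cap1, Tpm1 and Basp1 were named after their values were seen. With spike-in totals the counts were 2 and 7, where 9.5% of all genes differed over 25% either way and their median log2 ratio was -0.14. With the ratio of TPM + 1 the counts were 2 and 4, where 5.4% of all genes did. The split between the pools thus depended on the scaling.

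**Figure D5:**
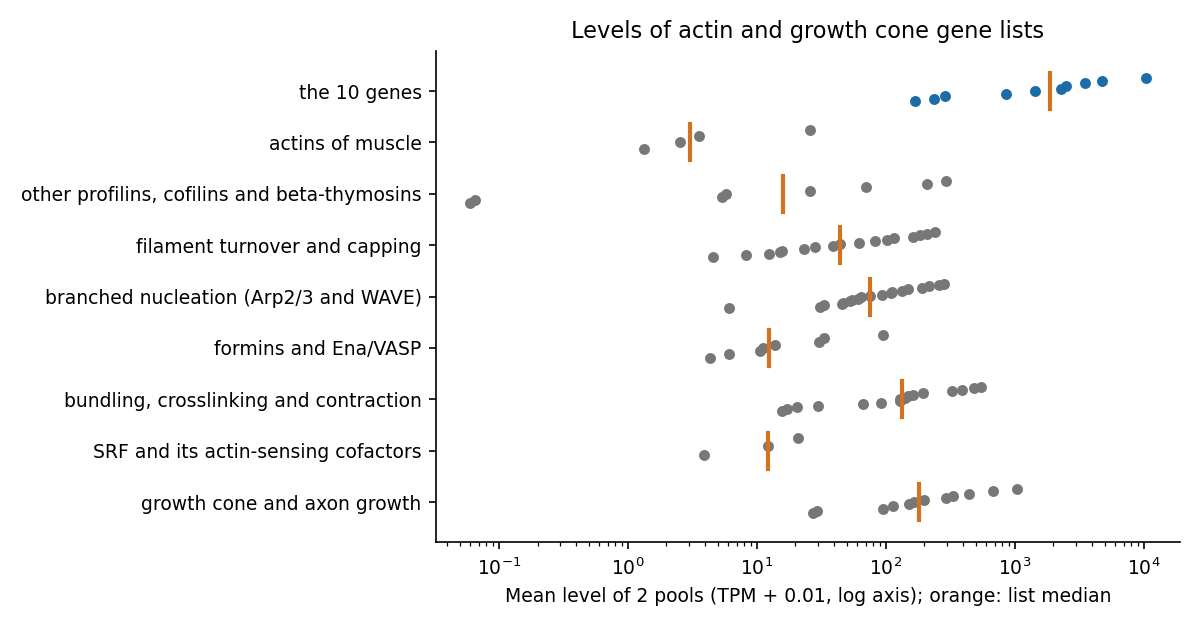
Mean TPM of the genes in the actin and growth cone lists described here on a log axis, after adding 0.01. The 10 genes have their own row, and the median of each list is an orange line. Every pathway gene drawn was detected, and the 10 genes span 169.1 to 10429 TPM.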

How the data were processed

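The 2 libraries of 1 group were used, with 8 of the deposited tables. In the authors' deposited tables, an expected count is the estimated number of reads of a gene or transcript on mm10, for GENCODE M21 and M4. The deposited TPM scale each library to 1e6. The deposited posterior mean TPM and posterior SD of the count were treated as scores, and lengths and effective lengths were used as given, per the file headers. The aligner, the quantifier and whether strand was used: not given in the sources used here. The newer release, M21, was the main one. All 55536 of its gene identifiers and 42462 of 43346 of the older ones matched the annotation. Numbered entries that name no gene held 5.96e-05% and 9.30e-05% of counts and were left out.

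Counts were rounded and scaled with edgeR 4.0.16 (TMM, mean count of 10 or more), with DESeq2 1.42.0 size factors as an alternative. Ratios between the pools used a prior count of 1, and their shares over all genes were taken among genes averaging 10 TPM or more. No test was made, since each pool is 1 library. The common dispersion over 19063 genes gave a coefficient of variation of 8.51%. Shared sequence was searched in the M21 transcripts on both strands in stretches of 36, 50 and 100 bases. R 4.3.3, Python 3.11.15, pandas 2.3.3, numpy 2.4.6, Biopython 1.88 and matplotlib 3.10.9 were used. The code for the ratios was run on simulated data with known folds, at a smaller spread than the 8.51% of the pools. Only medians over genes were compared there, so the run does not give the error of a single gene's ratio. Named were the 10 members, up to 3 genes sharing most sequence with each, every family gene, the 3 highest and 2 lowest of each pathway list, the highest and lowest markers and the genes next in rank. Some results under this rule are not reported here. Members and lists were chosen with earlier results of these data known, and the transcripts described were picked after their values were seen. Binomial intervals count PCR copies as molecules, so they cover counting error only.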

Additional observations from a re-analysis of the deposited data

How the results depend on the processing

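The median log2 ratio of pool 1 over pool 2 for the 10 genes, 0.03 with TMM, was 0.0017 with total gene counts, -0.13 with spike-in totals, 0.0149 with the ratio of TPM + 1, 0.0398 with no filter before TMM, 0.0278 in M4 and 0.0085 with counts of protein-coding transcripts. The count of genes differing over 1.5-fold between releases, 1 by TPM (also without replicate 1 or 2), was 0 by counts. In M4, Pfn2-202 held 0.371% of Pfn2 counts, Cfl1-201 100% of Cfl1 counts and Actg1-204 23.1% of Actg1 counts, and Actb-209 has no value there. The cause of the scaling differences was not tested. Leaving out 1 pool leaves the value of the other, so it only restates the spread of the 2 pools. That spread was 51.0% to 56.9% for Actb-209 of Actb TPM and 58.1% to 59.6% for Pfn2-202. It was 71.9% to 72.7% for Cfl1-201 and 17.3% to 21.3% for Actg1-204. All 10 genes were detected in each pool alone, which follows from a rule that already asks for both pools. With 36 bases 7 of the 10 shared sequence with another gene, with 50 bases 6 and with 100 bases 4. The level of Actb was 10105 TPM by posterior mean, 4918 without transcripts under 300 bases, 8243 per kilobase of coding transcript and 5505 in M4. The median pool ratio changed sign with spike-in totals. No paired analysis was possible because there is 1 group. The 2 pools give no error for single pool differences beyond counting.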

Other observations

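A transcript of under 300 bases held over 50% of a gene's TPM and under 10% of its counts in 3 of 8617 genes with several transcripts and a mean TPM of at least 10 (0.0348%). They were Actb, Zfp236 and Rpgrip1l, found by a rule set after the Actb values were seen. In Zfp236 a model of 156 bases held 1.83% of counts and 64.8% of TPM, with the gene at 21.8 TPM. In Rpgrip1l a model of 278 bases held 4.17% and 60.1%, with the gene at 12.8 TPM. The leading transcript by count was not the leading one by TPM in 12.2% of genes, and in 1 of the 8 members with several transcripts, Actb.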
